A study of Mus musculus with 6 samples.

Results

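Many mature microRNAs in these cells ended in a T that their hairpin does not encode. Such a tag, a distinct read sequence of 19 to 27 bases, matches no mouse microRNA hairpin as it stands but matches one once its single final T is removed. By that rule 2961 distinct tags were found among 3958863 distinct tags in 6 libraries. They numbered 1462 in the DMSO, 1153 in the retinoic acid, 1509 in the BIO, 1254 in the CHIR99021, 1483 in the ddH2O and 1507 in the vitamin C library, with 40155 to 92239 reads per library. Between 99.1 and 99.3% of these reads were counted in a hairpin arm. The rest began outside the window used for an arm or also matched another RNA class.

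The cells were J1, a mouse embryonic stem cell line kept in leukemia inhibitory factor, and all 6 groups were harvested after 24 h. Retinoic acid, which makes such cells differentiate, was given to 1 group at 1 µM. The GSK3 inhibitors were BIO at 1 µM and CHIR99021 at 3 µM. Vitamin C, which dioxygenase enzymes need as a cofactor, was given at 50 µg/ml. The vehicle groups received 1 µL of DMSO or 1 µL of ddH2O. Each group had 1 library, so no p-value was possible and no difference between libraries has a replicate check. The libraries held 18870345 to 23758363 reads, of which 729179 (retinoic acid) to 2155070 (DMSO) were untailed microRNA reads. The embryonic miR-290-295 cluster stood at 168348 (retinoic acid) to 342476 (CHIR99021) counts per 1000000 of these.

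A microRNA is cut from a hairpin transcript, first by Drosha in the nucleus and then by Dicer in the cytoplasm. The 3' end of a 3p arm is the end that Drosha leaves on the precursor, while the 3' end of a 5p arm is made by Dicer next to the loop. Terminal uridylyl transferases such as TUT4 and TUT7 can add uridine, read as T in sequencing, to the 3' end of a precursor or of a mature microRNA. In embryonic stem cells the protein LIN28 brings these enzymes to let-7 precursors, where a long uridine tail blocks Dicer.

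The RefSeq mature sequences (GRCm38.p6) of 11 arms named by rule are printed first, with the seed, bases 2 to 8, in capitals. They were picked for the largest shares of T-tailed reads, for the smallest, and for a shared seed with unlike shares. A further arm, miR-92b-3p, was added after its values were seen because it carries that same seed, AUUGCAC, with miR-363-3p, miR-25-3p and miR-92a-3p.
miR-341-3p: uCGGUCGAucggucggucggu
miR-24-3p: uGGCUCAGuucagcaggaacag
miR-291a-3p: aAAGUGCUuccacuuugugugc
miR-127-3p: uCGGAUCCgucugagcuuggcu
miR-363-3p: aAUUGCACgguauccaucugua
miR-92b-3p: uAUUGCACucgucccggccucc
miR-25-3p: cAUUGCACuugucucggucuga
miR-92a-3p: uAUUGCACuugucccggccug
miR-292a-5p: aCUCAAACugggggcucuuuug
miR-181d-5p: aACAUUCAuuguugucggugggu
let-7e-5p: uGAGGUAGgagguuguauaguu
miR-21a-5p: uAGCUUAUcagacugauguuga

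The most abundant T-tailed tag of each of these arms follows, as deposited, with the untemplated T in capitals. Set beside the mature sequence, it shows where the T was joined.
miR-341-3p tailed: tcggtcgatcggtcggtcggtT
miR-24-3p tailed: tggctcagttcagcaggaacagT
miR-291a-3p tailed: aaagtgcttccactttgtgtgcT
miR-127-3p tailed: tcggatccgtctgagcttggctT
miR-363-3p tailed: aattgcacggtatccatctgtaT
miR-92b-3p tailed: tattgcactcgtcccggcctccT
miR-25-3p tailed: cattgcacttgtctcggtctgT
miR-92a-3p tailed: tattgcacttgtcccggcctgaT
miR-292a-5p tailed: actcaaactgggggctcttttgT
miR-181d-5p tailed: aacattcattgttgtcggtgggttT
let-7e-5p tailed: tgaggtaggaggttgtatagttT
miR-21a-5p tailed: tagcttatcagactgatgttgaT

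One such tag made up most of the T-tailed reads of several arms. For miR-341-3p, at chr12:109611556-109611576 on the plus strand of GRCm38.p6 in an intron of the non-coding gene Rian, 44080 of 44540 T-tailed reads were the printed tag. For miR-24-3p, whose printed copy lies in an exon of 2010111I01Rik at chr13:63301251-63301272 on the plus strand, it was 10663 of 11023. For miR-181d-5p, in an intron of Nanos3 at chr8:84178759-84178781 on the minus strand, it was 24329 of 24563. Reads of miR-363-3p, at chrX:52741697-52741718 on the minus strand between genes, were more varied, and the printed tag held 4851 of 8917. The same was true of miR-21a-5p, at chr11:86584120-86584141 on the minus strand in an exon of Vmp1, with 22 of 43.

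The T share of an arm is the count of T-tailed reads divided by the sum of T-tailed reads and untailed reads to which a T could be recognised. An untailed tag whose next hairpin base is T cannot be assessed, because the tailed tag would match the hairpin. Assessable reads were 50.1 to 55.3% of untailed microRNA reads in a library. Some of the most abundant microRNAs of these cells were thereby almost unseen. Of the 20 most abundant arms, 9 had a T next after their most abundant tag. For let-7f-5p, not among those 9, the next base was G or T. For miR-290a-5p, a leading product of the embryonic miR-290-295 cluster, 0.0439% of reads could be assessed. The figure was 0.581% for let-7c-5p, 0.177% for let-7f-5p, 0.355% for let-7a-5p and 1.45% for miR-294-3p. Arms with 1000 or more assessed reads, which are assessable untailed plus T-tailed reads, in every library numbered 58, of which 33 were 5p and 25 were 3p.

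In the library as a whole, T-tailed reads were 7.24% of assessed reads with DMSO (88235 reads, interval 7.197 to 7.289%) and 8.19% with ddH2O (8.14 to 8.25%). With retinoic acid the T share was 9.05% (8.96 to 9.13%) and with vitamin C 7.49%. Of the GSK3 inhibitors, CHIR99021 had 6.93% (6.88 to 6.99%) and BIO 8.02% (7.97 to 8.07%). The highest was in the retinoic acid library and the lowest in the CHIR99021 library, and the vehicle libraries differed by more than their intervals. Intervals here and below are 95% Clopper-Pearson intervals. They cover counting error only, since the reads carry no molecular identifiers and copies of 1 molecule may be counted repeatedly.

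Other single untemplated bases were measured in the same way as a background. Shares of a final A lay between 4.60 and 5.16%. Shares of a final C were 0.157 to 0.187% in all libraries but CHIR99021, which had 0.721%. Shares of a final G were 0.878 to 6.05%, but most G-tailed reads fell on 1 arm, miR-6240-5p, of which 93.8 to 97.7% carried the G. Large-subunit rRNA was not searched, and whether the G of miR-6240-5p tags is templated outside the hairpins was not tested. Without miR-6240-5p the G share was 0.217 to 0.314%. Each base's share is of its own assessable reads. By these shares T stood first in each library, and A came next once miR-6240-5p was left out. By reads the order was not the same in each library. A-tailed reads outnumbered T-tailed reads after BIO (93606 against 91635) and CHIR99021 (60455 against 56833), and T-tailed reads were more in the other libraries. By distinct tags A outnumbered T in every library but retinoic acid, with 1556 against 1462 in DMSO. The order of the shares did not hold arm by arm. The T share exceeded the A share in 25 of 53 arms with DMSO, in 25 of 50 after retinoic acid, in 24 of 53 after BIO, in 19 of 50 after CHIR99021, in 29 of 54 with ddH2O and in 25 of 53 after vitamin C.

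The 3p arms, pooled, had a higher T share than the 5p arms in every library. With DMSO the shares were 8.02% for 3p and 5.55% for 5p, and with ddH2O 8.78 and 6.88%. After retinoic acid they were 10.7 and 6.08%, after BIO 8.83 and 6.27%, after CHIR99021 7.54 and 5.51%, and after vitamin C 8.11 and 6.02%. The order was kept in all 6 libraries without the arm that had most T-tailed reads on each side in that library, with 6.50 to 9.55% for 3p and 4.88 to 5.97% for 5p. That arm was miR-320-3p, or miR-341-3p with ddH2O and vitamin C, and miR-181d-5p, or miR-744-5p after retinoic acid.

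The middle arms of each side lay closer together than the pooled shares. Over the 58 arms the median T share was 5.14% for 3p and 3.48% for 5p with DMSO, and 4.81 and 4.45% with ddH2O. After retinoic acid it was 5.02 and 4.97%, after BIO 4.69 and 4.24%, after CHIR99021 4.57 and 3.71%, and after vitamin C 4.61 and 4.01%. Over all arms measured in a library by itself, the order turned after retinoic acid, with 3.98% for 3p and 4.13% for 5p. The sides differed at the upper end, where mean T shares over the 6 libraries reached 20% in 5 of 25 3p arms and in 0 of 33 5p arms. At the lower end, 5 of the 3p and 7 of the 5p arms stayed under 1%.

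Within single hairpins neither arm was always the more tailed. Of the 5 hairpins with both arms among the 58, which were looked at after their values were seen, miR-363, miR-291a and miR-25 had the higher T share on the 3p arm in 6 of 6 libraries. For miR-363 the means were 43.0% for 3p and 0.811% for 5p, for miR-291a 29.2 and 6.24%, and for miR-25 1.82 and 1.16%. The neighbours miR-292 and miR-293 went the other way in 6 of 6 libraries. Their 5p arms had means of 19.3 and 1.47%, and their 3p arms 0.570 and 0.788%.

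Among 3p arms, miR-341-3p, an imprinted microRNA of the Dlk1-Dio3 region, carried a T more often than not. Its T share was 73.5% with DMSO, 83.6% after retinoic acid, 83.5% after BIO, 59.0% after CHIR99021, 88.6% with ddH2O and 60.7% after vitamin C. CHIR99021 and vitamin C stood below the other 4 libraries, but DMSO lay nearer to them than to ddH2O, the other vehicle. Among all reads, not only microRNA reads, the CHIR99021 and vitamin C libraries are the richest in 18 and 19 bases. These lengths made up 15.8 and 18.7% of reads, against 8.01 to 14.4% in the others. Among the assessable untailed microRNA reads sorted by length below, the order was another. There DMSO had the most, 2.18% at 18 and 4.45% at 19 bases, against 1.97 and 3.78% after vitamin C and 1.47 and 2.65% after CHIR99021. A further count kept only tailed tags of 21 to 25 bases and untailed tags a base shorter, which also drops short untailed reads. By it miR-341-3p still had 61.2% after CHIR99021 and 64.0% after vitamin C, against 82.4 to 92.2% elsewhere. The mean share of miR-341-3p tags with a final A, measured against the same kind of denominator, was also high, at 39.4%.

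Next came miR-363-3p, of the miR-106a-363 cluster, with 35.8% with DMSO, 46.6% after retinoic acid, 46.2% after BIO, 43.4% after CHIR99021, 44.1% with ddH2O and 41.6% after vitamin C. DMSO was the low library here, with an interval of 34.4 to 37.3% that overlapped none of the others. A final A was rare on miR-363-3p, with a mean share of 0.701%. On miR-24-3p the T share was 39.9% with DMSO, 44.9% after retinoic acid, 38.6% after BIO, 35.9% after CHIR99021, 40.5% with ddH2O and 38.0% after vitamin C. Its mean A share was 3.63%.

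The neuronal miR-124a-3p had 34.4% with DMSO, 50.8% after retinoic acid, 35.9% after BIO, 30.4% after CHIR99021, 41.6% with ddH2O and 29.9% after vitamin C. Most of these T-tailed reads lay on a shorter form. Counting only the most abundant untailed tag and its T-tailed form, the mean of miR-124a-3p fell from 37.2 to 18.1%. The embryonic miR-291a-3p was among the steadiest arms, with 31.1% with DMSO, 30.3% after retinoic acid, 30.9% after BIO, 27.3% after CHIR99021, 27.6% with ddH2O and 27.9% after vitamin C. Likewise miR-127-3p, an imprinted microRNA antisense to Rtl1, kept between 18.02 and 19.96% in all 6 libraries.

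The other 4 of the 10 highest 3p arms were miR-320-3p (16.3 to 21.3%), miR-495-3p (14.79 to 17.996%), miR-342-3p (12.9 to 19.4%) and miR-23a-3p (10.8 to 15.9%). Of these miR-320-3p, a microRNA made without Drosha, had the most T-tailed reads of any arm, 62244 over all libraries. Counting only its most abundant untailed tag and the T-tailed form of that tag, miR-342-3p had a mean of 24.1% in place of 14.8%. At the bottom of the 3p side stood miR-292-3p at 0.498 to 0.632% and miR-323-3p at 0.0488 to 0.148%. For miR-690-3p 3 T-tailed reads were found among 11281 assessed reads of all libraries. In the 4 libraries where miR-690-3p had none, a count of 0 allows up to 0.119 to 0.218%.

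Among 5p arms the highest T share belonged to miR-292a-5p of the miR-290-295 cluster. It had 17.4% with DMSO, 28.9% after retinoic acid, 17.2% after BIO, 15.4% after CHIR99021, 19.7% with ddH2O and 17.2% after vitamin C. Its T sat mostly on a form that ends beyond the most abundant end. Counting only the most abundant untailed tag and its T-tailed form, the mean of miR-292a-5p was 5.06% in place of 19.3%. The same held for miR-674-5p, with a mean of 0.735% in place of 13.4%.

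The intronic miR-744-5p had T shares of 15.99 to 21.4%, miR-134-5p 10.9 to 13.2% and miR-674-5p 11.2 to 15.5%. On miR-181d-5p the T share was 10.01% with DMSO, 16.5% after retinoic acid, 10.05% after BIO, 9.32% after CHIR99021, 12.2% with ddH2O and 10.7% after vitamin C. On let-7e-5p it was 9.80% with DMSO, 16.4% after retinoic acid, 10.2% after BIO, 9.54% after CHIR99021, 10.7% with ddH2O and 10.6% after vitamin C. In both arms the retinoic acid library was the highest. The lowest 5p arms were miR-340-5p (0.345 to 0.627%), miR-411-5p (0.237 to 0.405%) and miR-21a-5p (0.0643 to 0.159%). For miR-21a-5p, a broadly expressed microRNA, that was 43 T-tailed reads among 38190 assessed reads.

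The order of the arms was nearly the same in each library. Over the 58 arms, Spearman's rho between a pair of libraries was 0.974 to 0.994, a description across arms that share genome, protocol and counting rules and are not replicates. The arms spanned 0.0238 to 74.8% in their means, while in arms with a mean of 1% or more the highest library exceeded the lowest by at most 2.93-fold, a ratio reached by miR-291a-5p.

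Arms with the same seed often differed in their T share, a comparison added after the values were seen. With at least 100 assessed reads in every library, 53 arms fell into 19 groups that share bases 2 to 8 of the mature sequence. In 8 of the 19 groups the highest mean was at least 5 times the lowest. They include the group of miR-330-3p with miR-6240-5p and that of miR-3473b-3p with miR-3473e-5p. There the leading T-tailed tags of miR-6240-5p and miR-3473b-3p do not start at the mature start, so their own seeds differ. For the 4 printed arms with seed AUUGCAC, the means were 43.0% for miR-363-3p, 7.59% for miR-92b-3p, 1.82% for miR-25-3p and 0.940% for miR-92a-3p. These 4 arms did not overlap, since the lowest library of each lay above the highest library of the next.

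The seed AAGUGCU, typical of embryonic stem cell microRNAs, gave 29.2% on miR-291a-3p, 8.16% on miR-294-3p and 3.15% on miR-295-3p. In the group of miR-148 and its relatives, miR-152-3p had 26.1%, miR-148b-3p 13.6% and miR-148a-3p 0.213%. Of the pair miR-103-3p and miR-107-3p, both in introns of pantothenate kinase genes, the first had 4.03 to 5.02% and the second 2.31 to 2.67%. Not every group spread so far. The arms miR-26a-5p and miR-26b-5p had means of 6.07 and 5.69%, with overlapping ranges over the libraries.

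Of 20 microRNA families, the one with the highest pooled T share was miR-23/27/24, a group expressed in many tissues, with a mean over libraries of 23.2% (20.3 to 28.2%). It was followed by the miR-148 family with 19.8% (17.5 to 24.5%) and by the imprinted Dlk1-Dio3 region with 16.7% (13.5 to 19.6%). The region's pooled value leans on miR-341-3p, with 7893 of its 14817 T-tailed reads with DMSO and 11175 of 18005 after vitamin C. Its 10 arms among the 58 had medians of 3.57 to 4.72%, against 3.98 to 5.00% over all 58. The let-7 family, whose precursors are the known substrate of uridylation in embryonic stem cells, had 10.8% (9.42 to 15.6%). This value describes few of its reads, because 9.60% of let-7 reads could be assessed and let-7e-5p was the family's single arm among the 58. With all untailed let-7 reads in the denominator the mean was 1.17%. Among let-7 members with 100 or more assessed reads in every library, let-7b-5p had a mean of 9.83%, let-7i-5p 9.56%, let-7c-5p 4.66% and let-7g-5p 2.27%.

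The miR-181 family had 10.4% (9.01 to 12.5%) and the miR-290-295 cluster 5.93% (5.00 to 8.30%), with 24.4% of the cluster's reads assessable. The miR-17-92 cluster with its paralogs, known for promoting proliferation, had 3.70% (2.91 to 4.71%), the miR-103 family 4.01% (3.77 to 4.69%) and the miR-221 family 2.48% (1.81 to 3.39%). Of the 20 families 11 are not detailed here, and their means lay between 3.67 and 7.43%. Within the Dlk1-Dio3 region arms ranged from 0.0994% on miR-323-3p and 0.809% on miR-382-5p to 19.3% on miR-127-3p and 74.8% on miR-341-3p, so a family's value rests on which of its arms are abundant.

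Shares were then compared between libraries, arm by arm, to ask whether 24 h of each compound went with more or less tailing than its vehicle. An arm was called when its T share differed at least 1.5-fold and the intervals did not overlap, with 1000 or more assessed reads in both libraries. The vehicle libraries, ddH2O against DMSO, give the only measure of how far libraries without a compound differ. An effect of the vehicle cannot be told apart there from a difference between libraries. In that comparison 5 of 85 arms were called higher, which is a background of 5.88%, and 0 were called lower (0%). The 5 were miR-382-5p, miR-26a-5p, miR-93-5p, miR-25-5p and miR-291a-5p. The largest ratio was on miR-382-5p, with 0.926% (0.735 to 1.15%) against 0.462% (0.353 to 0.594%). The smallest called ratio was on miR-291a-5p, with 6.69% against 4.11%. The median ratio was 1.12. Of the 58 arms, DMSO was the lowest library in 20, CHIR99021 in 21 and vitamin C in 12.

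After retinoic acid, 18 of 64 arms had a called higher T share than with DMSO, 28.1% of those compared, and 0 were lower (0%). The median ratio was 1.41. Calls fell mostly on 5p arms, 16 of 34 with a ratio, against 2 of 29 3p arms. Median ratios were 1.55 for 5p and 1.25 for 3p, and the difference between the sides was not tested. The vehicles differed on the same side, since the 5 arms called with ddH2O against this DMSO library were all 5p, at median ratios of 1.18 for 5p and 1.04 for 3p. Over the 58 arms retinoic acid was the highest of the 6 libraries in 37, of which 23 were among the 33 5p arms and 14 among the 25 3p arms.

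The 5 called arms with the largest ratios were miR-291a-5p, miR-294-5p, miR-25-5p, miR-669c-5p and miR-93-5p. For miR-291a-5p the T share was 12.03% (10.4 to 13.8%) after retinoic acid and 4.11% (3.66 to 4.60%) with DMSO, while BIO had 5.16%, CHIR99021 4.37%, ddH2O 6.69% and vitamin C 5.11%. For miR-294-5p the values were 1.31 and 0.455%, for miR-25-5p 1.92 and 0.753%, for miR-669c-5p of the Sfmbt2 intron cluster 1.20 and 0.503%, and for miR-93-5p 7.66 and 3.48%. The 3 smallest called ratios were 1.61 on miR-291b-5p, 1.61 on miR-99b-5p and 1.57 on miR-298-5p. The called 3p arms were miR-92a-3p, with 1.40 against 0.662%, and miR-293-3p, with 1.09 against 0.542%. Of their untailed reads 50.2 and 7.91% could be assessed, and a T follows the most abundant tag of miR-293-3p.

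Which vehicle served as control decided most of these calls. Against ddH2O, 6 of 65 arms were called higher after retinoic acid, and the median ratio was 1.18. Of the 18 arms called against DMSO, 17 were also above ddH2O, but 5 passed the call against both vehicles. These were miR-294-5p, miR-291a-5p, miR-672-5p, miR-291b-5p and let-7e-5p. Their ratios to ddH2O were 2.46 for miR-294-5p, 1.80 for miR-291a-5p, 2.15 for miR-672-5p, 1.57 for miR-291b-5p and 1.53 for let-7e-5p.

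A final A gave fewer calls after retinoic acid than a final T. For +A, 5 of 81 arms were called higher against DMSO (6.17%) and 0 lower (0%), and the median ratio was 1.13. The +A counts were 9 of 111 arms higher after BIO (8.11%), 6 of 91 after CHIR99021 (6.59%) and 2 of 113 with ddH2O (1.77%), all against DMSO. Against ddH2O 2 of 111 arms had a lower +A share after vitamin C (1.8%). Pooled A shares were 4.81% after retinoic acid and 4.60% with DMSO. The retinoic acid library has the fewest assessed reads, 440137 against 819915 to 1218276 in the others, and so the widest intervals. Arms whose level was lower after retinoic acid by at least 0.5 on the log2 scale had a median T ratio of 1.66 (13 arms), those within 0.5 had 1.29 (28 arms), and those higher by at least 0.5 had 1.45 (22 arms). Across those 63 arms the level ratio and the T ratio had a Spearman's rho of -0.15, with a shared control library.

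The GSK3 inhibitors and vitamin C gave few calls. After BIO 6 of 87 arms were called higher (6.9%) and 0 lower (0%), a count near that between the vehicles. The 5 with the largest ratios were miR-669c-5p (1.18 against 0.503%), miR-382-5p (0.981 against 0.462%), miR-92a-3p (1.40 against 0.662%), miR-191-5p (3.12 against 1.78%) and miR-101b-3p (3.20 against 1.93%). On miR-101b-3p the A share was also higher, 8.16 against 3.79%. The last of the 6 was miR-293-3p, with 0.879 against 0.542%. Assessable reads were 7.91% of untailed reads for miR-293-3p, 13.3% for miR-669c-5p, 24.3% for miR-191-5p and 50.2% for miR-92a-3p. They were 82.3% for miR-382-5p and 99.7% for miR-101b-3p. Against ddH2O no arm was called higher after BIO, so these calls rest on the DMSO library.

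After CHIR99021 1 of 72 arms was called higher (1.39%), miR-293-3p with 0.847 against 0.542%, and 0 were lower (0%). That value covers few reads, since 7.91% of untailed miR-293-3p reads could be assessed. The median ratio was 0.993. Against ddH2O the count was 0 higher and 6 lower. After vitamin C 0 of 87 arms were called higher than with ddH2O (0%) and 2 lower (2.3%), at a median ratio of 0.906. They were miR-30d-5p, with 2.60 against 4.21%, and miR-92a-3p, with 0.605 against 0.987%. Against DMSO no arm was lower after vitamin C and 2 were higher. The first 3 comparisons and that of the vehicles share the DMSO library.

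The T was placed near the usual end of the microRNA. The results below on end, length, neighbouring bases and second base cover a part of the T-tailed reads. They rest on 32444 (retinoic acid) to 77372 (BIO) such reads, where 39813 and 91635 were counted in arms. The untailed part of each tailed tag was set against the most abundant end of its arm. Where it ended at that base, the T share was 6.08 to 9.80%, and where it ended 1 base earlier, 11.4 to 13.8%. It was 1.21 to 1.95% for ends 2 bases short and 0.557 to 1.12% for ends 3 or more bases short. Ends 1 base beyond had 7.18 to 10.6%. By length, on 3p arms untailed parts of 18 bases carried a T in 0.0288 to 0.159% and those of 21 bases in 16.9 to 23.9%. At 21 bases 3p arms had 9691 to 24546 T-tailed reads in a library. Many came from miR-341-3p, whose printed tag has that length before its T and held 44080 reads over all libraries. On 5p arms the shares at 18 and 21 bases lay close, with 1.94 to 3.75% at 18 bases and 2.52 to 3.25% at 21 bases.

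The high value at ends 1 base short came from some of the arms. It was supplied by miR-140-3p (33.1% of T-tailed reads at that end), miR-320-3p (26.8%) and miR-124a-3p (14.5%). In 10 of 22 arms with 100 or more assessed reads at both ends the shorter form was more often tailed in all 6 libraries, and in the other 12 it was less often tailed in all 6. The steepest cases were miR-124a-3p, with a mean of 86.2% at the shorter and 18.2% at the usual end, and miR-320-3p, with 72.4 and 12.6%. On miR-25-3p the means were 9.99 and 0.435%, and its printed tailed tag is as long as the mature sequence. The opposite held for miR-24-3p, with 4.76% on the shorter form and 43.3% at the usual end.

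Grouped by the base before the T, shares spread less than they did over arms. Untailed parts that end in G had 10.9 to 14.9%, those in A 6.91 to 9.46%, those in C 4.47 to 6.91% and those in T 4.95 to 9.04%. On 5p arms the order of the first 2 turned in all 6 libraries, with 7.90 to 9.96% after G and 9.93 to 14.8% after A. Each class was led by few arms, since miR-320-3p held 30.0% of the T-tailed reads after G and miR-341-3p 36.1% of those after T. By the hairpin base that the T replaced, T shares were 7.12 to 9.81% over A, 6.16 to 9.93% over C and 5.96 to 8.77% over G. The sides went opposite ways, since over G the 5p arms had 6.86 to 9.95%, their highest, and the 3p arms 4.57 to 7.14%, their lowest. Where the annotated hairpin ends before the T, and a templated T could not be told apart, the share was 14.7 to 17.7%. These reads were at most 1.42% of the T-tailed reads covered here in a library, not of all its T-tailed reads.

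A second untemplated base was most often another T. Per 100 reads with 1 T there were 11.4 to 13.1 reads with TT, 3.53 to 4.06 with TA, and at most 0.310 with TC or TG in any library. Over 54 arms the median was 7.93 TT reads per 100. The highest was miR-26a-5p with 96.9, nearly as many reads with TT as with T, followed by miR-293-3p with 73.1 and miR-298-5p with 36.6. For miR-341-3p, the arm with the highest T share, the value was 7.40.

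A T that stands inside the hairpin sequence would be seen in reads that run on past it or in inner positions of the tag. Tags with the T followed by the next 2 hairpin bases numbered 0.339 to 0.520 per 100 T-tailed reads, with 5.85 on miR-293-3p as the highest arm and 0.0157 on miR-341-3p. Few reads extend that far, since ends 2 or more bases beyond the usual end were 3.68 to 4.72% of assessable untailed reads. A low count of such tags therefore cannot tell a tail from a T inside the hairpin. A T in place of another base at positions inside the tag was also rare. Its median over arms was 0.0138 to 0.0221% per position, against 2.82 to 4.38% after the same tag. The exception was miR-292a-5p, with 1.97 to 4.15% per inner position, where the next highest arm in a library had at most 0.0701%. Of the T-tailed reads 0.136 to 0.203% also matched an annotated transcript without mismatch.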

How the data were processed

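The deposited files list each distinct read sequence of 18 to 44 bases with its raw count, which the authors neither scaled nor assigned to genes. Per the submitters' processing notes the genome is mm9, and adapter removal and filters are not given in the sources used here. A base left at a tag's end by adapter removal would count as untemplated, which was not tested. The labels state that the raw reads of the BIO library were lost. Total RNA was extracted with TRIzol and prepared with a TruSeq kit, per the labels' protocols. J1 samples formed 6 groups of 1 library, so no replicate was available.

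Tags were matched without mismatch to 1174 Mir hairpins of GENCODE M21 (GRCm38) with Python 3.11.15 and numpy 2.4.6. Coordinates come from that build and were not converted to mm9. Each side of a hairpin was named 5p or 3p, an arm was set by its most abundant tag, and tags starting within 2 bases of it were counted. Tags shared by arms were split evenly. Left out were tags found in annotated snRNA, snoRNA, scaRNA, mitochondrial tRNA, any rRNA or Gm42418. No search was made of large-subunit rRNA or nuclear tRNA. Untailed tags had 18 to 26 bases. RefSeq gave mature sequences for 51 of the 58 arms measured in every library. Levels are counts per 1000000 untailed microRNA reads.

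Named arms are the 10 highest 3p and 6 highest 5p arms by mean T share, the 3 lowest of each, the 3 most abundant measured arms of each family, and in each comparison the 5 largest and 3 smallest called ratios. Other arms named were chosen after their values were seen. The members, families and comparisons were chosen with earlier results of these data known. Clopper-Pearson intervals used scipy 1.17.1. Counting was tested on simulated tags. Alternatives were the most abundant untailed tag with its T-tailed form alone, all untailed tags in the denominator, and other tag lengths. Further ones were minimum reads, fold thresholds, shared tags, tags counted once, the other RNA classes and the other vehicle library.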

Additional observations from a re-analysis of the deposited data

Results flagged for a closer look

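A single untemplated final C was measured only as a background for T, and it stood out in 1 library. With CHIR99021 the C share was 0.721% (0.706 to 0.737%), against 0.157% with DMSO, 0.177% after retinoic acid, 0.187% after BIO, 0.180% with ddH2O and 0.182% after vitamin C. Without the arm that had most C-tailed reads in a library, it was 0.628% after CHIR99021, where that arm was miR-320-3p with 1437 such reads, and 0.133 to 0.152% elsewhere, where it was miR-130a-3p. In 45 of 55 arms CHIR99021 lay above all 5 other libraries. On miR-25-3p the C share was 8.33% after CHIR99021 and at most 0.0330% elsewhere, and on miR-744-5p 3.91% and at most 0.176%. With 1 library per group the difference was not tested.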

How the results depend on the processing

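T shares were also taken from the most abundant untailed tag of each arm and its T-tailed form alone. They were 7.47% (DMSO), 9.19% (retinoic acid), 7.52% (BIO), 6.51% (CHIR99021), 8.27% (ddH2O) and 7.82% (vitamin C). With all untailed tags in the denominator they were 3.93, 5.18, 4.18, 3.83, 4.67 and 4.28% in that order. Without tags of several arms they were 7.33, 9.16, 8.12, 7.03, 8.30 and 7.60%. With tailed tags of 21 to 25 bases and untailed tags a base shorter they were 7.75, 9.54, 8.19, 7.25, 8.53 and 7.94%. Retinoic acid stayed highest and CHIR99021 lowest under these 4 settings. Of mean T shares of named arms under the settings tried, 138 moved by less than the spread between libraries and 15 by more, and of families 110 and 30. These moves were not spread evenly over the settings. With the most abundant tag and its T-tailed form alone, most named arms and most families moved. With all untailed tags in the denominator most families moved, and among arms miR-323-3p and miR-21a-5p did. The pooled 3p share was above 5p in 6 of 6 libraries under every setting tried.

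Called arms moved more. At 2-fold, 8 arms were higher after retinoic acid, 3 after BIO, 0 after CHIR99021 and 1 with ddH2O, and 0 were lower after vitamin C. Against the other vehicle library, 6 were higher after retinoic acid, 0 after BIO and 0 after CHIR99021, 1 was lower after BIO and 6 after CHIR99021, and for vitamin C 2 were higher and 0 lower. With the most abundant tag and its T-tailed form alone, 7 were higher and 1 lower after retinoic acid, and 1 and 1 after BIO. In that setting CHIR99021 had 0 and 2, and ddH2O 2 and 1. With all untailed tags, CHIR99021 had 2 higher and 1 lower, and vitamin C 1 higher and 1 lower. At 500 assessed reads, 1 was lower after retinoic acid and 2 higher after CHIR99021. With tailed tags of 21 to 25 bases and untailed tags a base shorter, 3 were higher after BIO. Without tags counted once 1 was higher after vitamin C.

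Leaving out tailed tags found in any transcript, or the arms with most T-tailed reads, was chosen after seeing the data. The planned extension of hairpins into the genome was not run, since no genome sequence was used here. No paired analysis was possible because each group has 1 library, so that groups share fewer than 2 replicate numbers. Depth limits arms with low shares most, and the retinoic acid library has the fewest assessed reads.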
